A study of Homo sapiens with 12 samples.

Results

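The nonsense-mediated decay (NMD) factor genes UPF1, UPF2, UPF3A, UPF3B, SMG1, SMG5 and SMG6 were followed through all 4 groups of an exon array study of cytoplasmic RNA. A gene was measured through the probe sets that carry its symbol and no other, which gave 226 probe sets for 5 of the 7 genes, out of 357604 probe sets with a single symbol in the whole series. UPF3A and UPF3B had no such probe set and were not analysed here. Of the 226 probe sets, 191 had a mean above the median of all probe sets (2.04 on the log2 scale) and were kept, and UPF1, UPF2, SMG1, SMG5 and SMG6 were 5 of the 16883 genes tested.

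All samples came from U2OS, a human osteosarcoma cell line, with a doxycycline-inducible K294A, a catalytically inactive capping enzyme that acts in the cytoplasm. The 4 groups of 3 arrays each were induced Xrn1, induced untreated, uninduced Xrn1 and uninduced untreated. Induced cells received doxycycline at 1 ug/ml for 24 h and uninduced cells none, cytoplasmic RNA was depleted of ribosomal RNA, and RNA of the Xrn1 groups was then digested in vitro with Xrn1. This exonuclease degrades RNA bearing a 5′ monophosphate and spares capped RNA. The study set out to identify transcripts that regain a cap in the cytoplasm. Whether the line is a single clone, and whether replicates are separate cultures, is not given in the sources used here, so p-values measure the spread between these samples, which may be technical.

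NMD is the pathway that degrades mRNAs on which translation terminates too early. UPF1, an RNA helicase, is recruited to the terminating ribosome and is joined by UPF2, which with UPF3 links it to exon junction complexes downstream of the stop codon. SMG1, a large kinase of the PIKK family, phosphorylates UPF1, and phosphorylated UPF1 recruits SMG6, an endonuclease that cuts the target, and SMG5, which connects to deadenylation and decapping. The cut leaves a 3′ fragment with a 5′ monophosphate that Xrn1 removes in cells. Several NMD factor mRNAs are themselves targets of the pathway.

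Xrn1 acts on the 5′ end of an RNA, so the annotated 5′ ends of the measured genes are given here, as 10 bases before the start in lower case and the first 20 bases of the transcript in capitals (RefSeq, GRCh38.p14, gene strand, 5′ to 3′).
UPF1, chr19:18831949-18831978, plus strand: cggtggcggcAGTTCCTGCTCTAGGCTGCG
UPF2, chr10:12043151-12043180, minus strand: ggtttgaggtGCTGGTAGTGGCTACCTTAC
SMG1, chr16:18926389-18926418, minus strand: gcggggaagcAGTGGCCGTGTGAGCGTGAG
SMG5, chr1:156291497-156291526, minus strand: ggcagtgagcATGCGCTCCGGCTCCACCAC
SMG6, chr17:2303766-2303795, minus strand: ccgcccgtctGTGGTGGTTTCCTGGCTGCG
Where the table holds several start windows, 2 for UPF2, 2 for SMG5 and 4 for SMG6, only the outermost start of the gene is given. All 5 starts given are an A or a G. A run of at least 4 pyrimidines (C or T) from the start, a feature of some translation factor genes, was in none of the 5 and in 7.2% of the 35116 start windows in the same table. The 300-base windows around the starts had 74.3% (UPF1), 62.7% (UPF2), 74.7% (SMG1), 65.7% (SMG5) and 78.3% (SMG6) G and C, against a median of 58.7% over all windows, and none held TATAAA before the start, which 6.8% of windows do. These letters describe annotated starts only, and which ends the RNAs had in these cells was not measured.

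The values are log2 levels from RMA, so a change is relative to the other RNAs on an array, and the level of a gene can be compared between samples but not with that of another gene. The test was limma over all 16883 genes with a Benjamini-Hochberg adjusted p under 0.05. It gave every gene a common SD of 0.418, hence a standard error of 0.34 for a comparison of 2 groups. The median of all genes moved by 0.10 with Xrn1 in induced cells and by -0.27 in uninduced cells, and by -0.00 and 0.09 after each array was centred on its median gene. The arrays differed in signal, with 144 to 298 genes above a level of 6 on the induced Xrn1 arrays, 327 to 823 on the induced untreated arrays, 110 to 151 on the uninduced Xrn1 arrays and 760 to 1114 on the uninduced untreated arrays. Of the 12 arrays, 4 correlated more highly across genes with an array of another group than with any of their own. The gap was widest for induced untreated replicate 3, at 0.979 with uninduced untreated replicate 3 against 0.87 within its group, and results in induced cells and for induction are therefore also given without it. For the others the values were 0.894 against 0.888 (induced untreated replicate 2), 0.938 against 0.918 (uninduced Xrn1 replicate 1) and 0.979 against 0.967 (uninduced untreated replicate 3). Of 9 markers of mesenchymal and bone cells, VIM, SPARC, COL1A1 and LGALS1 lay at or above percentile 99.3 of gene levels, CD44 at 91 and the other 4 between 29.3 (CDH11) and 77.3 (TWIST1). The 12 measured markers of other cell types lay between percentiles 4.35 (HBB) and 81 (CD3E). Such ranks compare different probes, so they do not check the identity of the line. RNGTT, the gene of the capping enzyme, differed by 0.21 between induced and uninduced untreated cells (95% confidence interval -0.46 to 0.88), and whether its probe sets match the K294A transgene is not given in the labels.

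UPF1 and UPF2, which form the core of the surveillance complex, behaved unlike each other. UPF2 mRNA was lower after Xrn1 in both induction states, with log2 changes of -0.91 in induced and -2.11 in uninduced cells. UPF1 mRNA had a change of 0.46 in induced cells, which did not pass, and was lower after Xrn1 in uninduced cells, at -0.98. The difference between the 2 UPF1 changes was 1.44, beside a median of 0.70 over all genes, and passed the interaction test (limma adjusted p = 0.0301), but not after centring of the arrays, after cyclic loess or with the gene's own spread (limma adjusted p from 0.0754 to 0.0944).

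UPF2 (chr10:11920022-12043170, GRCh38.p14) was measured by 26 kept of 36 probe sets. Its level was 2.33, 2.17 and 2.46 on the induced Xrn1 arrays, against 2.79, 3.13 and 3.77 on the induced untreated arrays. It was 2.17, 1.72 and 2.02 on the uninduced Xrn1 arrays, against 4.27, 3.78 and 4.19 on the uninduced untreated arrays. Every Xrn1 array lay below every untreated array of its induction state, and the uninduced untreated arrays were the highest of all. The uninduced Xrn1 mean of 1.97 lay below the filter cut of 2.04, near the floor, which limits how far a fall can show. The filter used means over all arrays, so probe sets bright only on untreated arrays could be kept. The 10 left out had 1.50 with Xrn1 and 1.19 untreated in induced cells, and 1.21 and 2.14 in uninduced cells. The change was -0.91 in induced cells (95% confidence interval -1.58 to -0.24; limma adjusted p = 0.0241) and -2.11 in uninduced cells (-2.78 to -1.44; limma adjusted p = 1.01e-08). The average of both was -1.51 (limma adjusted p = 4.63e-09), and it held with the own spread of UPF2 in place of the common SD (limma fit without the prior, adjusted p = 0.000748). The call in induced cells was lost without induced untreated replicate 2 or any 1 induced Xrn1 array, without induced untreated replicate 3 (-0.64; limma adjusted p = 0.0807) and with dim probe sets included (-0.57; limma adjusted p = 0.153). Also lost was the induced call with the median over probe sets, probe sets above the upper quartile, own spread or the sample number as a block (limma adjusted p from 0.0522 to 0.0598). In order of mean level, uninduced untreated (4.08 ± 0.26, SD, n = 3) came first, then induced untreated (3.23 ± 0.50), induced Xrn1 (2.32 ± 0.14) and uninduced Xrn1 (1.97 ± 0.23), and the values of the last pair overlapped.

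UPF1 (chr19:18831959-18868230) was measured by 28 kept of 32 probe sets. Its level was 3.37, 3.36 and 3.40 on the induced Xrn1 arrays, against 2.65, 2.42 and 3.70 on the induced untreated arrays. It was 3.08, 2.43 and 3.03 on the uninduced Xrn1 arrays, against 3.73, 3.69 and 4.07 on the uninduced untreated arrays. The uninduced groups did not overlap, while the induced untreated arrays spanned values below and above all 3 induced Xrn1 arrays. The change was 0.46 in induced cells (95% confidence interval -0.21 to 1.13; limma adjusted p = 0.296) and -0.98 in uninduced cells (-1.65 to -0.31; limma adjusted p = 0.0134). The uninduced call was lost without uninduced Xrn1 replicate 2 (-0.78; limma adjusted p = 0.105), without uninduced untreated replicate 3 (-0.86; limma adjusted p = 0.0684), after centring (-0.63; limma adjusted p = 0.0592) and with the gene's own spread (limma fit without the prior, adjusted p = 0.0515). Leaving out both uninduced replicates 2 also lost it (-0.84; limma adjusted p = 0.0826). Without induced untreated replicate 3 the induced change was 0.84 and passed the test (limma adjusted p = 0.0239). Averaged over both states UPF1 moved by -0.26 (limma adjusted p = 0.364).

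**Figure D1:**
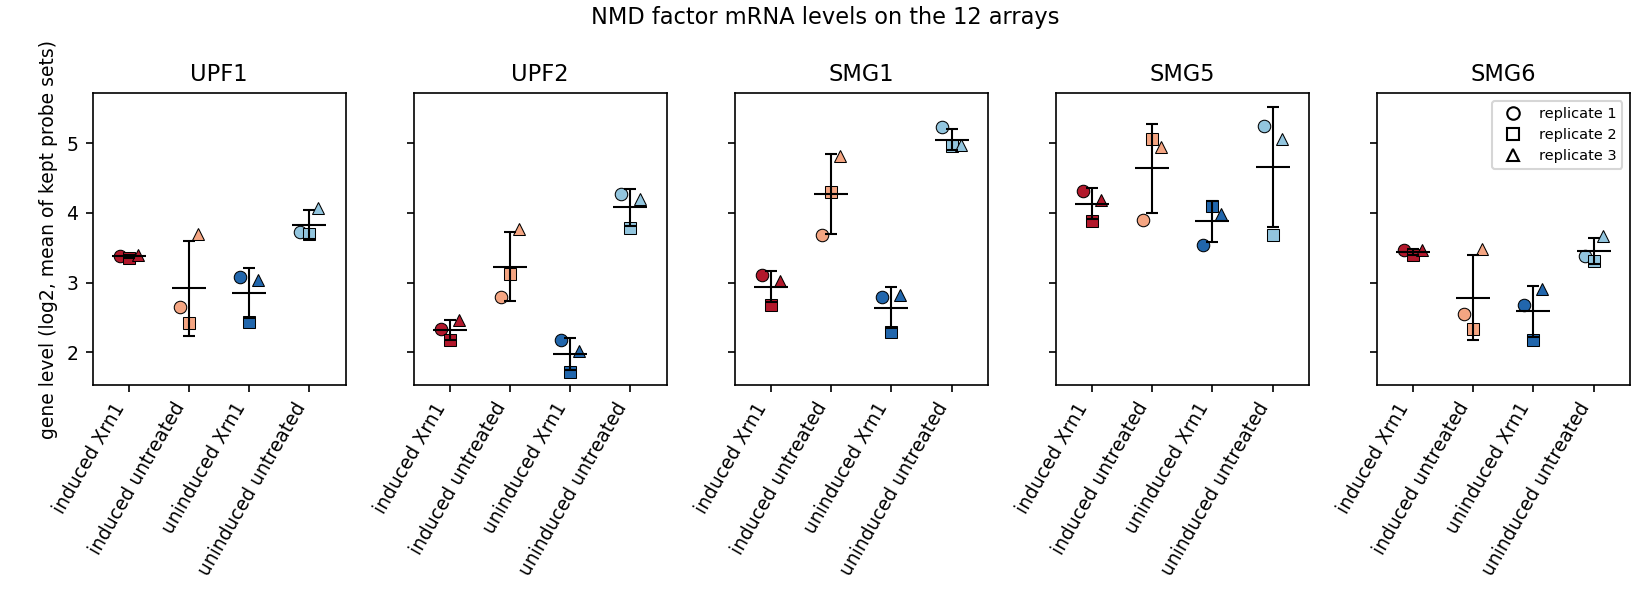
Level of each measured NMD factor gene on the 12 arrays (y axis, log2, mean of the kept probe sets) by group (x axis). Symbols are replicates, and the horizontal bars and whiskers are the mean and SD of 3 arrays. UPF2 and SMG1 sit lower on every Xrn1 array than on every untreated array of the same induction state, while the induced untreated arrays of UPF1 and SMG6 span those of the induced Xrn1 group.

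SMG1, the kinase that phosphorylates UPF1, was lower after Xrn1 in both induction states. Its change in uninduced cells, -2.41 on the log2 scale, placed it at the 3.73th percentile of all genes, so that few genes had a more negative change.

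SMG1 (chr16:18804860-18926408) was measured by 80 kept of 90 probe sets. Its level was 3.11, 2.68 and 3.02 on the induced Xrn1 arrays, against 3.69, 4.31 and 4.82 on the induced untreated arrays. It was 2.79, 2.30 and 2.83 on the uninduced Xrn1 arrays, against 5.23, 4.95 and 4.97 on the uninduced untreated arrays. No Xrn1 array reached the lowest untreated array of either state. The change was -1.33 in induced cells (limma adjusted p = 0.000898) and -2.41 in uninduced cells (95% confidence interval -3.08 to -1.75; limma adjusted p = 4.2e-11). Both calls held without each array in turn, with the gene's own spread (limma fit without the prior, adjusted p = 0.0357 for the induced and 0.000936 for the uninduced state) and after cyclic loess scaling (-1.46 and -1.90). Uninduced untreated had the highest mean (5.05 ± 0.16, SD, n = 3), followed by induced untreated (4.27 ± 0.57), induced Xrn1 (2.94 ± 0.23) and uninduced Xrn1 (2.64 ± 0.30), and the last pair overlapped. Chromosome 16 also carries SMG1 pseudogene copies close to it in sequence, so signal from their RNAs in these probe sets cannot be told apart from that of SMG1.

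The effectors SMG5 and SMG6, which bind phosphorylated UPF1, had smaller changes. SMG6 mRNA had a change of 0.66 in induced cells, which did not pass, and was lower after Xrn1 in uninduced cells with one of -0.87, the same signs as UPF1. SMG5 mRNA passed the test only for the average of both states, at -0.65.

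SMG6 (chr17:2059839-2303785) was measured by 24 kept of 35 probe sets. Its level was 3.46, 3.39 and 3.46 on the induced Xrn1 arrays, against 2.54, 2.33 and 3.48 on the induced untreated arrays. It was 2.67, 2.18 and 2.90 on the uninduced Xrn1 arrays, against 3.38, 3.31 and 3.67 on the uninduced untreated arrays. In uninduced cells the groups did not overlap, and in induced cells untreated replicate 3 was the highest array and untreated replicates 1 and 2 the lowest. The change was 0.66 in induced cells (95% confidence interval -0.01 to 1.33; limma adjusted p = 0.112) and -0.87 in uninduced cells (-1.54 to -0.20; limma adjusted p = 0.0309). The uninduced call was lost without uninduced Xrn1 replicate 2 (-0.67; limma adjusted p = 0.175), untreated replicate 1 (-0.91; limma adjusted p = 0.0527) or untreated replicate 3 (-0.76; limma adjusted p = 0.112), and after centring (-0.51; limma adjusted p = 0.119). The median over probe sets, probe sets above the upper quartile, own spread and the sample number as a block also lost it (limma adjusted p from 0.0593 to 0.0767). So did leaving out both uninduced replicates 2 (-0.74; limma adjusted p = 0.116). Without induced untreated replicate 3 the induced change was 1.01 and passed the test (limma adjusted p = 0.00872).

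SMG5 (chr1:156249224-156291516) was measured by 33 probe sets, all kept. Its level was 4.32, 3.88 and 4.19 on the induced Xrn1 arrays, against 3.90, 5.07 and 4.95 on the induced untreated arrays. It was 3.54, 4.10 and 3.99 on the uninduced Xrn1 arrays, against 5.25, 3.68 and 5.06 on the uninduced untreated arrays. In each untreated group 2 arrays lay above all Xrn1 arrays and the other one lay among them, so the groups overlapped in both states. The change was -0.51 in induced cells (limma adjusted p = 0.236), -0.79 in uninduced cells (limma adjusted p = 0.0533) and -0.65 on average (95% confidence interval -1.12 to -0.17; limma adjusted p = 0.0206). The average call was lost without induced untreated replicate 2 or 3, induced Xrn1 replicate 2, uninduced untreated replicate 1 or 3 or uninduced Xrn1 replicate 1 (limma adjusted p up to 0.109), with the gene's own spread (limma fit without the prior, adjusted p = 0.149) and after cyclic loess (-0.17; limma adjusted p = 0.492), which also turned the uninduced change to 0.07. The median over probe sets also lost the average call (-0.59; limma adjusted p = 0.107). Without uninduced untreated replicate 2, the low array, the uninduced change was -1.28 and passed the test (limma adjusted p = 0.00393). It also passed, at an equal -0.79, without induced untreated replicate 1 or 2, which narrowed the common SD.

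As a group, 2 of the 5 measured genes were lower with Xrn1 in induced cells (UPF2 and SMG1) and none was higher, where 17.8% of all genes were called lower and 21.6% higher. In uninduced cells 4 of 5 were lower (UPF1, UPF2, SMG1 and SMG6) and none was higher, where 31.8% of all genes were called lower and 7.24% higher. For the average 3 of 5 were lower (UPF2, SMG1 and SMG5), against 29.8% of all genes. With each gene's own spread in place of the common SD, limma without the prior called 1 of 5 lower in induced cells (SMG1), against 6.14% of all genes, 2 of 5 in uninduced cells (UPF2 and SMG1), against 25.4%, and 2 of 5 for the average, against 24.5%. The Xrn1 and untreated values of a gene did not overlap for 2 of 5 genes in induced cells and for 4 of 5 in uninduced cells, all lower with Xrn1, against 22.6% and 33.6% of all genes. Of 12 measured markers of other cell types 6 were higher with Xrn1 in induced cells and none changed in uninduced cells. Without induced untreated replicate 3 the NMD factor genes called in induced cells were SMG1 lower and UPF1 and SMG6 higher, against 14.9% of all genes called lower and 32.3% higher, and 8 of the 12 markers were higher. The mean level of these 12 markers was 3.39 to 3.59 on induced Xrn1 arrays, 2.63 to 3.36 on induced untreated arrays, 2.82 to 3.38 on uninduced Xrn1 arrays and 2.99 to 3.41 on uninduced untreated arrays. Their part in the NMD factor results was not tested.

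**Figure D2:**
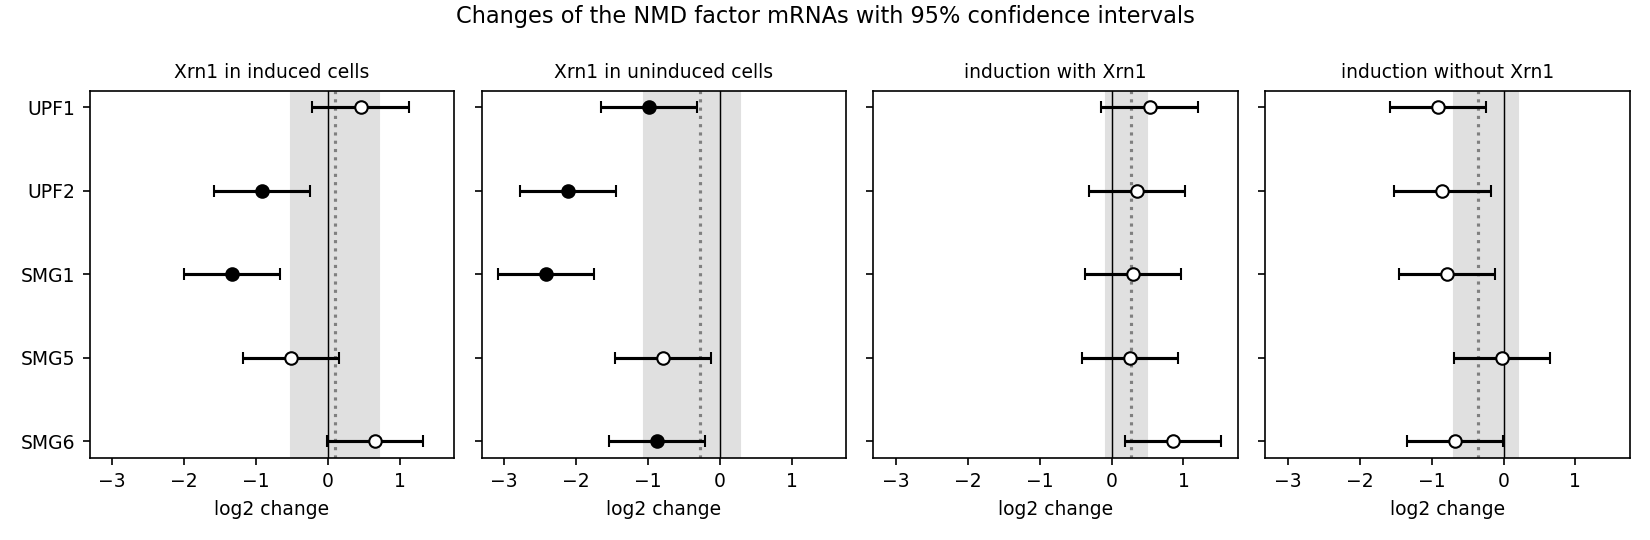
Log2 change of each gene (x axis) in 4 comparisons, with 95% confidence intervals from limma. Filled points passed the adjusted threshold, grey bands span the middle quartiles of all genes tested and dotted lines are their medians. UPF2 and SMG1 are filled in both Xrn1 comparisons, at -2.11 and -2.41 in uninduced cells, and no point is filled for induction.

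The Xrn1 changes of the 5 genes were compared with each other within the arrays, where an offset equal for all genes of an array cancels. Signal differences that depend on the level of a gene need not cancel. After cyclic loess the difference was -1.39 for UPF2 minus SMG5, -0.05 for UPF1 minus SMG5 and -0.05 for SMG5 minus SMG6. For each of 10 pairs the difference between the changes, averaged over both induction states, was tested by an exact two-sided permutation test over 400 splits within induction state, whose smallest p is 0.005, with Benjamini-Hochberg adjustment over the 10 pairs. This comparison was chosen after the values had been seen. In all, 8 of 10 pairs differed. How often pairs of other genes pass this test is not given here, so the count has no background and is not particular to NMD factors. SMG1 moved further down than UPF1, SMG5 and SMG6: the UPF1 change minus the SMG1 change was 1.61, the SMG1 change minus the SMG5 change was -1.23, and minus the SMG6 change it was -1.77 (exact permutation p = 0.005 and adjusted p = 0.01 for each). UPF2 moved further down than UPF1 (UPF1 minus UPF2, 1.25) and SMG6 (UPF2 minus SMG6, -1.40), each with the same exact permutation p of 0.005 and adjusted p of 0.01. UPF2 also moved further down than SMG5 (UPF2 minus SMG5, -0.86; exact permutation, adjusted p = 0.0214), a call that was lost with dim probe sets included. SMG1 moved further down than UPF2 by 0.36 (exact permutation, adjusted p = 0.0167), which was lost after cyclic loess. UPF1 and SMG6 differed by -0.16 (exact permutation, adjusted p = 0.025), a call lost under 4 alternatives. Between UPF1 and SMG5 (0.38) and between SMG5 and SMG6 (-0.54) no difference passed, with opposite signs of the difference in the 2 induction states. The same 8 pairs passed the exact permutation test when induced untreated replicate 3 was left out.

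The Xrn1 change depended on induction for UPF1 and SMG6 by the interaction test. The induced minus the uninduced Xrn1 change was 1.44 for UPF1 (95% confidence interval 0.49 to 2.39; limma adjusted p = 0.0301) and 1.53 for SMG6 (0.58 to 2.47; limma adjusted p = 0.0251). It was 1.20 for UPF2 (limma adjusted p = 0.0545), 1.08 for SMG1 (limma adjusted p = 0.0763) and 0.28 for SMG5 (limma adjusted p = 0.666). Thus 2 of 5 genes passed, against 20.6% of all genes with a higher value, and the median of all genes was 0.70. Relative to that median, the values were 0.74 for UPF1 and 0.83 for SMG6. Neither call held after centring of the arrays (0.97 and 1.06; limma adjusted p = 0.077 and 0.06), after cyclic loess (0.96 and 1.13), or with each gene's own spread. Both were lost without induced untreated replicate 1 or 2, induced Xrn1 replicate 1 or 3, uninduced Xrn1 replicate 2 or uninduced untreated replicate 3 (limma adjusted p from 0.0635 to 0.129), and UPF1 also without induced Xrn1 replicate 2. Without induced untreated replicate 3, which had the highest UPF1, UPF2, SMG1 and SMG6 values of its group, 4 of 5 genes passed, against 45.8% of all genes with a higher value and a median of 0.91, and UPF2 passed also without uninduced Xrn1 replicate 1 (1.30) or uninduced untreated replicate 2 (1.35).

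Induction of K294A called none of the 5 genes. In untreated RNA the change from induction was -0.91 for UPF1, -0.85 for UPF2, -0.78 for SMG1, -0.03 for SMG5 and -0.67 for SMG6, with limma adjusted p from 0.11 to 0.967, where 0.0415% of all genes were called and the median of all genes was -0.35. At an unadjusted p under 0.05, 4 of these 5 limma tests passed, as did those of 30.8% of all genes. Without induced untreated replicate 3 the same 4 genes passed, at -1.30 (UPF1), -1.12 (UPF2), -1.06 (SMG1) and -1.02 (SMG6), with limma adjusted p from 0.00747 to 0.0132, where 37.9% of all genes were called lower and the median of all genes was -0.58. In Xrn1-treated RNA the changes were 0.53 for UPF1, 0.35 for UPF2, 0.30 for SMG1, 0.25 for SMG5 and 0.86 for SMG6 (limma adjusted p from 0.523 to 0.72), where 0.0592% of all genes were called and the median was 0.28. At an unadjusted p under 0.05, 1 of these 5 limma tests passed, that of SMG6, as did those of 9.09% of all genes. SMG6 lay at the 97.8th percentile of all genes in this comparison, and passed when only the 2 groups compared were fitted (limma adjusted p = 0.021). That fit called 991 of the 16883 genes higher. The values of UPF1 and of SMG6 did not overlap between induced and uninduced Xrn1 arrays, as for 34.4% of all genes. Between induced and uninduced untreated arrays those of UPF2 (at most 3.77 against at least 3.78) and SMG1 (4.82 against 4.95) did not overlap. The share of all genes for that comparison is not given here. In such bulk RNA, fewer cells with a transcript and less of it per cell cannot be told apart.

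Single probe sets, which exon arrays place along the exons of a gene, showed how evenly each mRNA changed. In uninduced cells 67 of 80 SMG1 probe sets and 21 of 26 UPF2 probe sets were lower with Xrn1 by limma over all 705699 kept probe sets, against 10.8% of these. Only 258175 of the kept probe sets carry a single gene symbol, so the shares in this paragraph are mostly over other probe sets and are no like background. At gene level 31.8% of all genes were lower in this comparison. For UPF1 6 of 28 were lower, for SMG5 5 of 33 and for SMG6 5 of 24, with 1 SMG6 probe set higher, against 7.54% called higher. In induced cells 32 SMG1 probe sets, 5 of UPF2 and 1 of SMG5 were lower and none of UPF1 or SMG6, against 5.52%. Higher in induced cells were 3 probe sets of SMG6 and 1 each of UPF1, UPF2 and SMG1, against 6.89%. When induced untreated replicate 3 was left out, the lower probe sets in induced cells were 26 of SMG1, 3 of UPF2 and 1 each of SMG5 and SMG6, against 5.61%, and the higher ones were 7 of UPF1, 6 of SMG6, 2 of SMG1 and 1 of UPF2, against 14.5%. The median change of the SMG1 probe sets was -1.37 in induced and -2.44 in uninduced cells, and that of the UPF2 probe sets -1.17 and -2.17. On average over both states, the SMG1 probe sets brighter than their median had a median change of -1.98 and the dimmer ones -1.85.

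**Figure D3:**
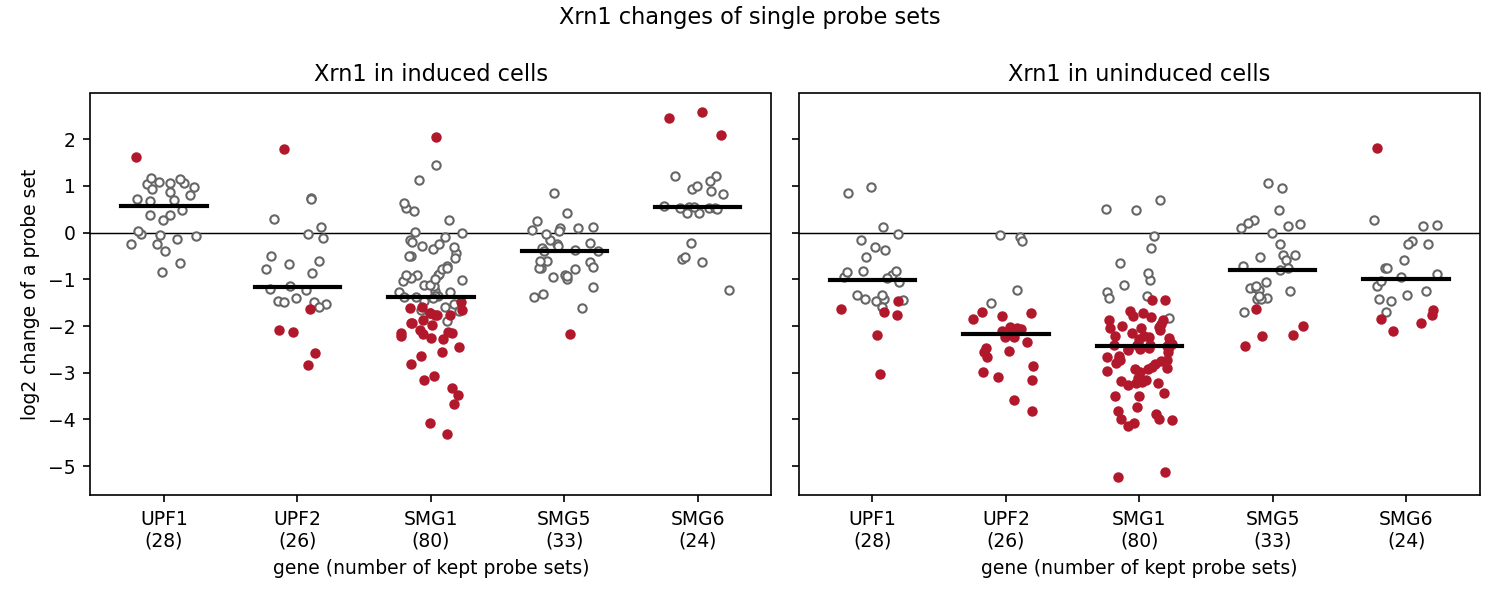
Log2 change with Xrn1 (y axis) of each kept probe set of the 5 genes, in induced and in uninduced cells. Filled red points passed the limma threshold over all kept probe sets, open points did not, and black bars are medians. Most SMG1 and UPF2 points are filled and below 0 in uninduced cells, while UPF1, SMG5 and SMG6 points spread around smaller changes.

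The probe sets that were higher in induced cells lay at the ends of their genes. Their order along a gene was taken from the probe set numbers, since probe positions were not used here: over 44 chromosome strands with 14771 genes, the median number of a gene's probe sets followed its RefSeq start with a Spearman coefficient between 0.881 and 1 (median 0.979). The order within a gene was inferred from this and not checked against probe positions. By this order and the strand, the higher probe set of UPF1 was the 1st of 28 from the 5′ end (change 1.61), that of UPF2 the 1st of 26 (1.78) and that of SMG1 the 2nd of 80 (2.05). Of the 3 higher SMG6 probe sets, 1 was the 1st of 24 from the 5′ end (2.59 in induced and 1.81 in uninduced cells) and the others were the 22nd and the 24th (2.09 and 2.46). These 6 were looked at because they had passed, so their places are a description.

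Whether the 5′ and 3′ parts of each mRNA changed unequally was tested on the mean of the 5′ part minus the mean of the 3′ part of a gene's kept probe sets, split at the middle of their order, for 11386 genes with at least 6 of them, in a comparison chosen after the single probe sets had been seen. Over all genes this difference was higher with Xrn1, by a median of 0.21 on average over both states, with 33.3% of genes called higher and 9.34% lower, and by similar medians for genes of the plus (0.22) and the minus strand (0.20). SMG5 went the other way. Its 5′ minus 3′ difference was -0.64, -0.99 and -0.92 on the induced Xrn1 arrays, against -0.33, -0.25 and -0.36 on the induced untreated arrays. On the uninduced Xrn1 arrays it was -0.81, -0.59 and -1.06, against -0.12, -0.53 and -0.47 on the uninduced untreated arrays. All Xrn1 arrays lay below all untreated arrays of their state. The average change was -0.49 (95% confidence interval -0.79 to -0.20; limma adjusted p = 0.0103), the 7.59th percentile of all genes, and it held with only the outer probe sets of both ends (-0.47, leaving out the middle part) and without each array in turn. Within either state alone it did not pass (limma adjusted p of 0.0567 for induced cells and 0.0946 for uninduced ones).

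For the other 4 genes this difference between both parts did not pass in the average: it changed by 0.01 for UPF1, 0.19 for UPF2, -0.15 for SMG1 and -0.08 for SMG6 (limma adjusted p from 0.301 to 0.947). UPF2 depended on how much of the ends was taken, with 0.76 for the outer probe sets (limma adjusted p = 0.00197) and 0.53 with dim probe sets included (limma adjusted p = 0.00921). In the split at the middle, the 95% confidence intervals were -0.43 to 0.12 for SMG1 and -0.11 to 0.50 for UPF2.

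**Figure D4:**
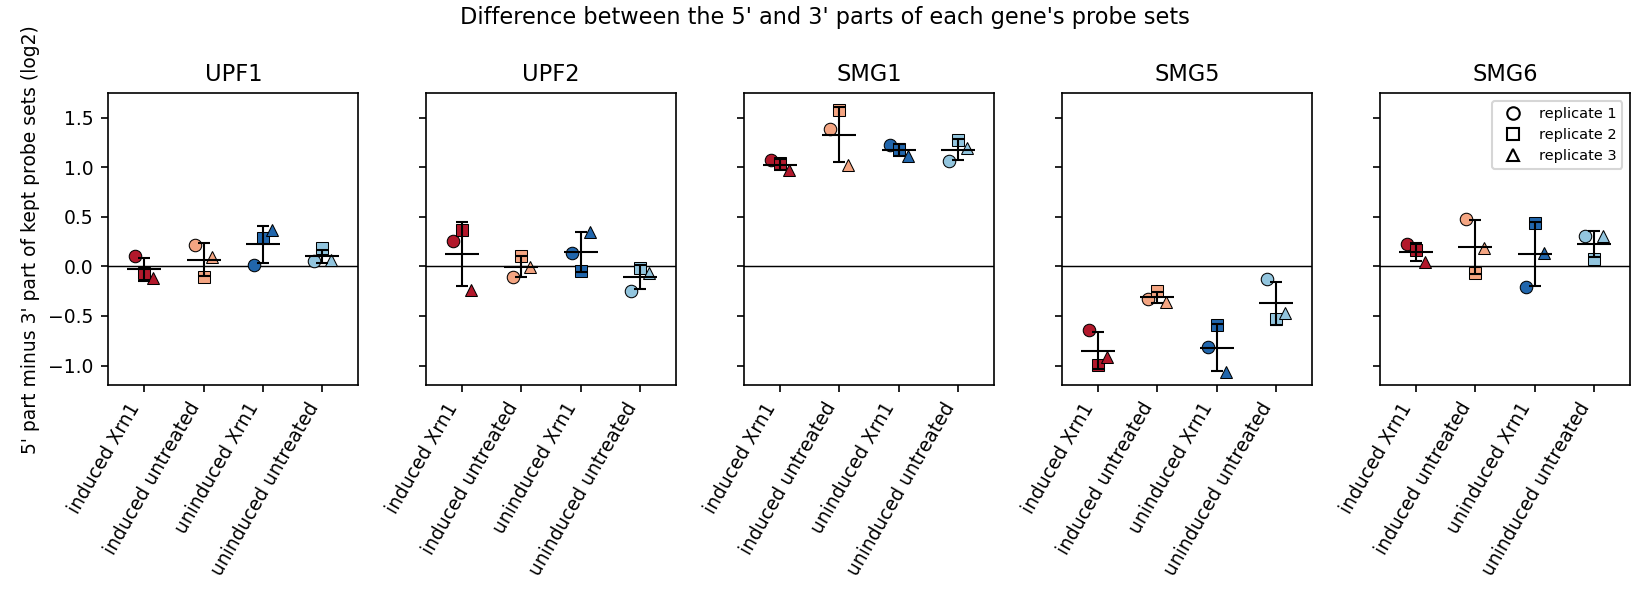
Mean of the 5′ part minus mean of the 3′ part, split at the middle, of each gene's kept probe sets (y axis, log2) on the 12 arrays by group (x axis). Symbols are replicates, bars and whiskers the mean and SD of 3 arrays. For SMG5 all Xrn1 arrays lie below all untreated arrays of their induction state, at means of -0.85 and -0.82 against -0.31 and -0.37.

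Over the 12 arrays, among the 5 genes, UPF2 was most like SMG1 and UPF1 most like SMG6. These are descriptions over arrays that share groups and signal differences. Pearson's r was 0.987 between UPF2 and SMG1 and 0.939 between UPF1 and SMG6, against 0.565 between UPF1 and SMG1 and 0.258 between SMG5 and SMG6. Many other genes were as similar: SMG1 ranked 91 of all genes in likeness to UPF2 and UPF2 302 to SMG1, while SMG6 ranked 510 for UPF1 and UPF1 251 for SMG6. The genes of all tested with the most similar pattern were SMCHD1 (0.999), BTAF1 (0.998) and ARID2 (0.998) for SMG1, and ZFX, JMJD1C and PIGN (0.994 each) for UPF2. They were SPG7 (0.991), NDUFV3 (0.99) and PPP6R2 (0.988) for UPF1, ARMCX6 (0.989), CHMP2A (0.989) and NR1H2 (0.986) for SMG6, and ETV5 (0.995), TMEM43 (0.99) and E2F3 (0.989) for SMG5.

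Other factors of the pathway spread over a wider range. Their average changes ran from -2.18 (PNRC2) to 0.37 (DHX34), against -1.87 (SMG1) to -0.11 (SMG6) for the 5 genes. Of 10 further NMD factors 8 were measured, of which 2 were lower and 1 higher with Xrn1 in induced cells, 5 were lower and none higher in uninduced cells, and 4 were lower on average. All genes gave 17.8% lower and 21.6% higher in induced cells, 31.8% lower and 7.24% higher in uninduced cells, and 29.8% lower on average. The median of the 8 was -0.34 in induced and -1.09 in uninduced cells, beside 0.10 and -0.27 for all genes. On average PNRC2, which links UPF1 to decapping, changed by -2.18 (limma adjusted p = 6.99e-18; -1.31 after cyclic loess), GNL2 by -1.83 (limma adjusted p = 7.3e-13) and SMG8, a partner that holds SMG1 in check, by -1.23 (limma adjusted p = 2.68e-06). RUVBL2, an ATPase of PIKK assembly, had -0.64 (limma adjusted p = 0.022) and 0.09 after cyclic loess. SMG9, the other regulatory partner of SMG1, had 0.69 in induced cells (limma adjusted p = 0.0958, and 1.02 with 0.0109 without induced untreated replicate 3) and was lower in uninduced cells (-1.01; limma adjusted p = 0.0105).

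Of 9 exon junction complex genes, which mark spliced mRNAs for UPF2 and UPF3, 2 were lower in induced cells (1 was higher), 6 in uninduced cells and 5 on average, with a median average change of -0.62 that was -0.23 after cyclic loess. The shares of all genes called lower were 17.8% in induced cells, 31.8% in uninduced cells and 29.8% on average, and 2 of 9 is near the first. EIF4A3, the helicase that anchors the complex, changed by -1.57 (-0.67 after cyclic loess) and MAGOHB by -1.13 (-0.59), and RNPS1 had -0.66 that became 0.07 after cyclic loess. Of 5 translation termination genes 4 were lower in induced cells, and all 5 in uninduced cells and on average. Among them the ribosome recycling factor ABCE1 changed by -2.26, the release factors GSPT1 and ETF1 by -2.22 (-1.47 after cyclic loess) and -1.35 and the poly(A) binding protein PABPC1 by -1.85 on average, the last one losing its call after cyclic loess (-0.35). All 5 PIKK kinases related to SMG1 were lower on average, and 4 in each state. PRKDC, the DNA-dependent protein kinase, changed by -2.32, ATM by -1.27 and TRRAP by -1.02.

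Of 17 measured transcripts known as NMD substrates, other than the 5 genes themselves, 6 were lower and 1 higher in induced cells, 8 were lower and none higher in uninduced cells, and 10 were lower on average. Beside them, 17.8% of all genes were lower in induced cells, 31.8% in uninduced cells and 29.8% on average. SLC7A11, a cystine transporter, changed by -1.86 and the splicing factors SRSF6, SRSF2 and SRSF3 by -1.75, -1.41 and -1.37 on average, which for SRSF2 and SRSF3 became -0.56 and -0.72 after cyclic loess. The median average change of the 17 was -0.73 and turned to 0.18 after cyclic loess, so the direction of the list depends on the scaling. After cyclic loess 3 of the 17 were lower and 3 higher in uninduced cells, and the genes lower there numbered 3 of 9 for the exon junction complex, 3 of 5 for termination, 2 of 5 for the PIKK kinases and 6 of 16 for decapping and 5′ to 3′ decay, against 21.9% of all genes lower and 21.9% higher under that scaling.

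The machinery downstream of SMG5 and SMG6 is read against the 29.8% of all genes lower on average, and 26.7% after cyclic loess. In induced and uninduced cells 17.8% and 31.8% of all genes were lower. The deadenylase list also holds non-catalytic subunits and the adaptors TOB1, TOB2, BTG1 and BTG2. Of its 17 genes 11 were lower in induced cells (1 was higher), 15 in uninduced cells and 13 on average. Their median average change was -1.45, and -1.10 after cyclic loess. CNOT1, the scaffold of the CCR4-NOT complex, changed by -2.89 and its catalytic partner CNOT7 by -2.76. Of 16 decapping and 5′ to 3′ decay genes 4 were lower in induced cells, 10 in uninduced cells and 9 on average, with 1 higher in induced cells and on average, led by the helicase DDX6 (-2.82) and the nuclear exonuclease XRN2 (-2.41). Of 16 exosome genes 7, 10 and 9 were lower in induced cells, uninduced cells and on average, and 1 was higher in each, with EXOSC2 at -2.42 and DIS3, its catalytic subunit, at -1.73. The UPF and SMG genes had a median average change of -0.65 (-0.22 after cyclic loess, with 0.12 for all genes), within the range of these lists, from -0.54 for the other NMD factors to -1.85 for translation termination, while the median of all genes was 0.05. In induced cells, with induced untreated replicate 3 left out, the genes lower numbered 2 of 8 (other NMD factors), 2 of 9 (exon junction complex), 4 of 5 (termination), 2 of 5 (PIKK kinases), 6 of 17 (NMD substrates), 9 of 17 (deadenylases), 4 of 16 (decapping) and 5 of 16 (exosome), against 14.9% of all genes.

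**Figure D5:**
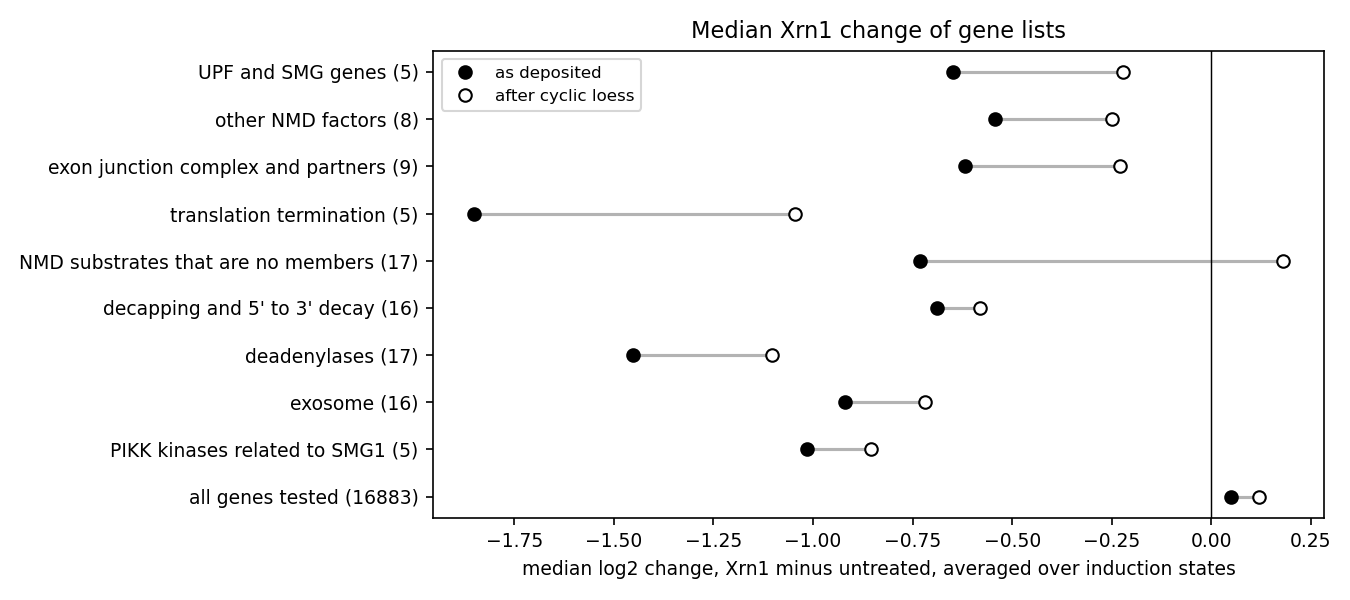
Median log2 change with Xrn1, averaged over both induction states (x axis), of the 5 measured UPF and SMG genes and of related gene lists, with the number of measured genes in parentheses. Filled points are the values as deposited and open points the values after cyclic loess scaling. Each filled point except that of all genes is below 0, and the open point of the NMD substrates lies above 0, at 0.18.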

How the data were processed

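The authors deposited log2 values for the probe sets of 12 exon arrays. Per the submitters' processing notes they used RMA and oligo. Versions, array annotation and build are not stated in the labels. The values were not normalised again. Groups follow the labels' doxycycline and Xrn1 entries. The titles of induced Xrn1 replicates 1 and 2 carry the same replicate number, and replicate 1 was numbered by its sample number. Probe sets were kept when their mean over the 12 arrays exceeded 2.04, the median of all 1411399. A gene's value is the mean of its kept probe sets with 1 symbol, and genes with at least 3 were tested. Symbols follow the platform annotation, updated through RefSeq (GRCh38.p14). limma 3.58.1 in R 4.3.3 fitted 4 group means over all 12 arrays, with 6 contrasts and Benjamini-Hochberg adjustment over the 16883 genes of each. The code was run on simulated data with independent noise of a common SD. The fit assumes the same, so that run does not check the calls on these arrays. limma estimated an infinite prior. Named genes are the 7 NMD factors, up to 4 genes per list with the smallest p on average, SMG8 and SMG9, the 3 most similar genes per factor, and RNGTT. The members and lists were chosen with earlier results of these data known. SMG8, SMG9 and DHX34 in single contrasts, the comparison of pairs, that of 5′ and 3′ parts and further results without induced untreated replicate 3 were chosen after the values had been seen. The number of arrays limits the precision.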

Additional observations from a re-analysis of the deposited data

Results flagged for a closer look

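The Xrn1 change differed between induction states by the limma interaction term for 5 of the 13 measured NMD factors, where 20.6% of all genes had a higher value. The induced minus the uninduced change was 1.53 for SMG6 (limma adjusted p = 0.0251), 1.44 for UPF1 (limma adjusted p = 0.0301), 1.70 for SMG9 (limma adjusted p = 0.017), 1.36 for SMG8 (limma adjusted p = 0.0358) and 1.29 for DHX34 (limma adjusted p = 0.0425), which was named after its value was seen, beside a median of 0.70 over all genes. After cyclic loess none of the 5 passed, with limma adjusted p from 0.0533 to 0.114, and after centring SMG9 did while the other 4 did not. Of the related genes, 4 of 9 of the exon junction complex (CASC3, PYM1, ACIN1 and SAP18) and 1 of 5 of translation termination (GSPT1) also passed with a higher value. So did 8 of 17 of the deadenylase list, 7 of 16 of decapping and 5′ to 3′ decay and 3 of 16 of the exosome. It was 1 of 5 for the PIKK kinases and 0 of 17 for the NMD substrates. After cyclic loess 1 decapping and 5′ to 3′ decay gene passed with a higher value, and none of the other lists.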

How the results depend on the processing

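The falls of UPF2 and SMG1 in uninduced cells and on average passed under every alternative run, and over 710 comparisons of single genes with an alternative 634 kept their side of the threshold, 59 lost and 17 gained a call. In uninduced cells the 4 genes called became 2 after centring and 2 with each gene's own spread, 3 with the median over probe sets or above the upper quartile and 5 with dim probe sets included, and leaving out 1 array gave 2 to 5. Of all 16883 genes 5367 were called lower there in the main fit, 4294 after centring, 4286 with own spread and 5267 with the median. Above the upper quartile it was 5076 of 13916 genes, and with dim probe sets included 5503 of 18674. In induced cells the 2 called became 1 with the median over probe sets, without the filter on dim probe sets, with probe sets above the upper quartile (2.76), with own spread and with the sample number as a replicate block, and 1 to 3 with 1 array left out. Called lower there were 3000 of all 16883 genes in the main fit, 2599 with the median, 1037 with own spread and 2538 with that block. Without the filter it was 2892 of 18674, and above the upper quartile 2917 of 13916. The 3 on average became 2 with the median, cyclic loess or own spread, and 2 to 3 with 1 array left out. Lower calls on average over all genes went from 5031 to 4860 with the median, 4501 after cyclic loess and 4134 with own spread. Induction without Xrn1 gave 0 to 4 and induction with Xrn1 0 to 0 with 1 array left out. Induction with Xrn1 gave 1 when only its groups were fitted, where 991 of all 16883 genes were called higher. For the interaction the 2 called became 0 with the median, centring, cyclic loess, own spread, the sample number as a block and without the uninduced replicates 2, became 1 above the upper quartile and 3 without the filter, and ranged from 0 to 4 with 1 array left out. Of all 16883 genes 3479 had a higher call in the main fit, 1415 with the median, 520 after centring, 165 after cyclic loess and 0 with own spread. It was 137 with that block, 1 without the uninduced replicates 2, and 46 to 7736 with 1 array left out. Above the upper quartile it was 1158 of 13916, and without the filter 4379 of 18674. Of 60 genes of the further lists lower on average, 12 were no longer called lower after cyclic loess, and 5 of them reversed: RUVBL2 (0.089), RNPS1 (0.071), RPL3 (0.259), HNRNPL (0.225) and ATF4 (0.278). The causes were not tested.

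Untreated and Xrn1 arrays share sample numbers, but whether each pair is a split RNA sample is not given in the sources used here. Deviations from the group means correlated between -0.708 and 0.125 in the 6 pairs of the same sample number. Among 12 arrays, 2 correlated best with their own number. Signal differences between arrays enter these deviations, so they cannot show whether the samples are paired. With the sample number as a block, 3 genes were called in uninduced cells and 3 on average. Of all 16883 genes 4858 and 4630 were called lower there. Calls lost with that block were UPF2 in induced cells (limma adjusted p = 0.0522) and SMG6 in uninduced cells (limma adjusted p = 0.0629). The interactions of UPF1 and SMG6 were lost as well (limma adjusted p = 0.0774 and 0.072). Higher calls for the interaction fell over all genes from 3479 without the block to 137. With the replicate number as a block, 2, 4, 3 and 2 were called for Xrn1 in induced cells, in uninduced cells, on average and for the interaction. Over all 16883 genes 2930, 5278 and 4975 were lower in the first 3 of these, and 2862 were higher for the interaction.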

Other observations

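A set of 3 probe sets listed under both SMG1 and BOLA2 was left out of the SMG1 level. Their mean was 4.20 ± 0.37 (SD, n = 3) on induced Xrn1 arrays, 7.22 ± 0.42 on induced untreated arrays, 3.75 ± 0.58 on uninduced Xrn1 arrays and 7.65 ± 0.36 on uninduced untreated arrays, so the Xrn1 arrays did not reach the untreated ones here either. The 10 dim probe sets of UPF2 that the filter left out had means of 1.50 ± 0.06 on induced Xrn1 arrays, 1.19 ± 0.17 on induced untreated arrays, 1.21 ± 0.25 on uninduced Xrn1 arrays and 2.14 ± 0.42 on uninduced untreated arrays.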
